A study of Mus musculus with 162 samples.

Results

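The gastric endocrine genes are 9 genes whose products are made in or act on the hormone-secreting cells of the stomach. They were taken by gene symbol, and all 9 were found among the 53686 genes of the count table: the hormone genes Gast, Ghrl, Sst and Nts, the enzyme genes Hdc and Mboat4, the receptor gene Cckbr, and the granin genes Chga and Chgb. Their level in the stomach (STM) at 6 fasting times is given with the other 8 organs beside it. The data come from a study of short-term fasting in male C57BL/6J mice aged 8 to 9 weeks, which were group-housed. Mice were fed ad libitum (0 h) or had food removed 2, 8, 12, 18 or 22 h before death, with 3 mice at each time and 18 in all. Every mouse was killed at the same time of day, so a longer fast covered other hours of the day than a shorter one, and this cannot be told apart from its length. Each mouse gave olfactory bulb (OB), telencephalon with diencephalon (BRN), cerebellum (CBL), brainstem (BST), STM, liver (LIV), interscapular brown fat (iBAT), perigonadal white fat (pgWAT) and posterior subcutaneous white fat (psWAT) for mRNA-seq.

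The gastric mucosa holds several kinds of endocrine cell. G cells of the antrum, the part next to the duodenum, release gastrin when food arrives, and gastrin acts through the receptor CCKBR on enterochromaffin-like cells, whose histamine drives acid secretion by parietal cells. Somatostatin from D cells restrains this chain, and ghrelin from X/A-like cells, which is active only after acylation by the enzyme MBOAT4, stimulates appetite and growth hormone release. Chromogranins A and B are stored with hormones and amines in the secretory granules of endocrine cells and of many neurons.

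Levels are given as CPM, the counts of a gene scaled to the total in genes of its library. The libraries used held 3045845 to 27801717 counts, and the 17 STM libraries 6851903 to 13769280. A count of 3, taken as the floor of detection, was worth 0.218 to 0.438 CPM in STM, and such floors cover counting error only. 5 libraries with low totals, which the study did not use, were left out here, among them STM 12 h replicate 3, so 12 h had 2 STM libraries.

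Some STM libraries stood apart. All 0 h and 2 h libraries and 8 h replicates 1 and 2 were sequenced on lane 5, and 8 h replicate 3 and every library of 12, 18 and 22 h on lane 6, so lane and a long fast cannot be told apart except through the 8 h libraries. Replicates 1 and 3 of 18 h lay closer to each other than any other pair of STM libraries: over 373 genes with a mean count of at least 2000, the 95th percentile of the absolute log2 ratio was 0.20, against 0.52 for the next closest pair and a median of 1.60. Tests of the 9 genes that use 18 h were therefore also run with those 2 libraries summed into 1, an alternative chosen after seeing the data. Replicates 1 and 3 of 0 h held pancreatic transcripts, with 57.2 and 111.9 CPM of the chymotrypsinogen gene Ctrb1 and 14.4 and 20.6 CPM of the insulin gene Ins2, while Ctrb1 lay between 0.0726 and 1.33 CPM in the other 4 libraries of 0 and 2 h. Leaving out those 2 libraries was likewise an alternative chosen after seeing the data.

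The tissue label was checked against defining genes. The proton pump gene Atp4a lay between 1173 and 6535 CPM, the pepsinogen gene Pgc between 70388 and 210853 CPM and the surface mucin gene Muc5ac between 521 and 4292 CPM over the 17 STM libraries. Of the 9 genes, Nts was close to absent from STM, with a mean of 0.0231 CPM, 14 of 17 libraries at 0 and no more than 2 counts in any library. Nts therefore passed as a gastric gene by name and not by level, and no fold change is given for it in STM. The other 8 passed the filter on low counts there.

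Per kilobase of merged exon, which makes levels of different genes comparable, Ghrl led in STM at 0 and 2 h with 870 ± 258 CPM per kb (SD, n = 6). Gast followed with 478 ± 167.7 and Sst with 404 ± 103.9 CPM per kb, then Chga with 172 ± 24.99 and Chgb with 35.6 ± 9.36. Hdc stood at 6.15 ± 1.29, Cckbr at 1.61 ± 0.573 and Mboat4 at 1.13 ± 0.439 CPM per kb. At 18 and 22 h Gast had dropped in this order from the place after Ghrl to the place after Chga, at 20.5 ± 21.99 CPM per kb, while Ghrl stood at 694 ± 165.1, Sst at 254 ± 61.9, Chga at 138.3 ± 49.4 and Chgb at 9.84 ± 5.99.

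**Figure D1:**
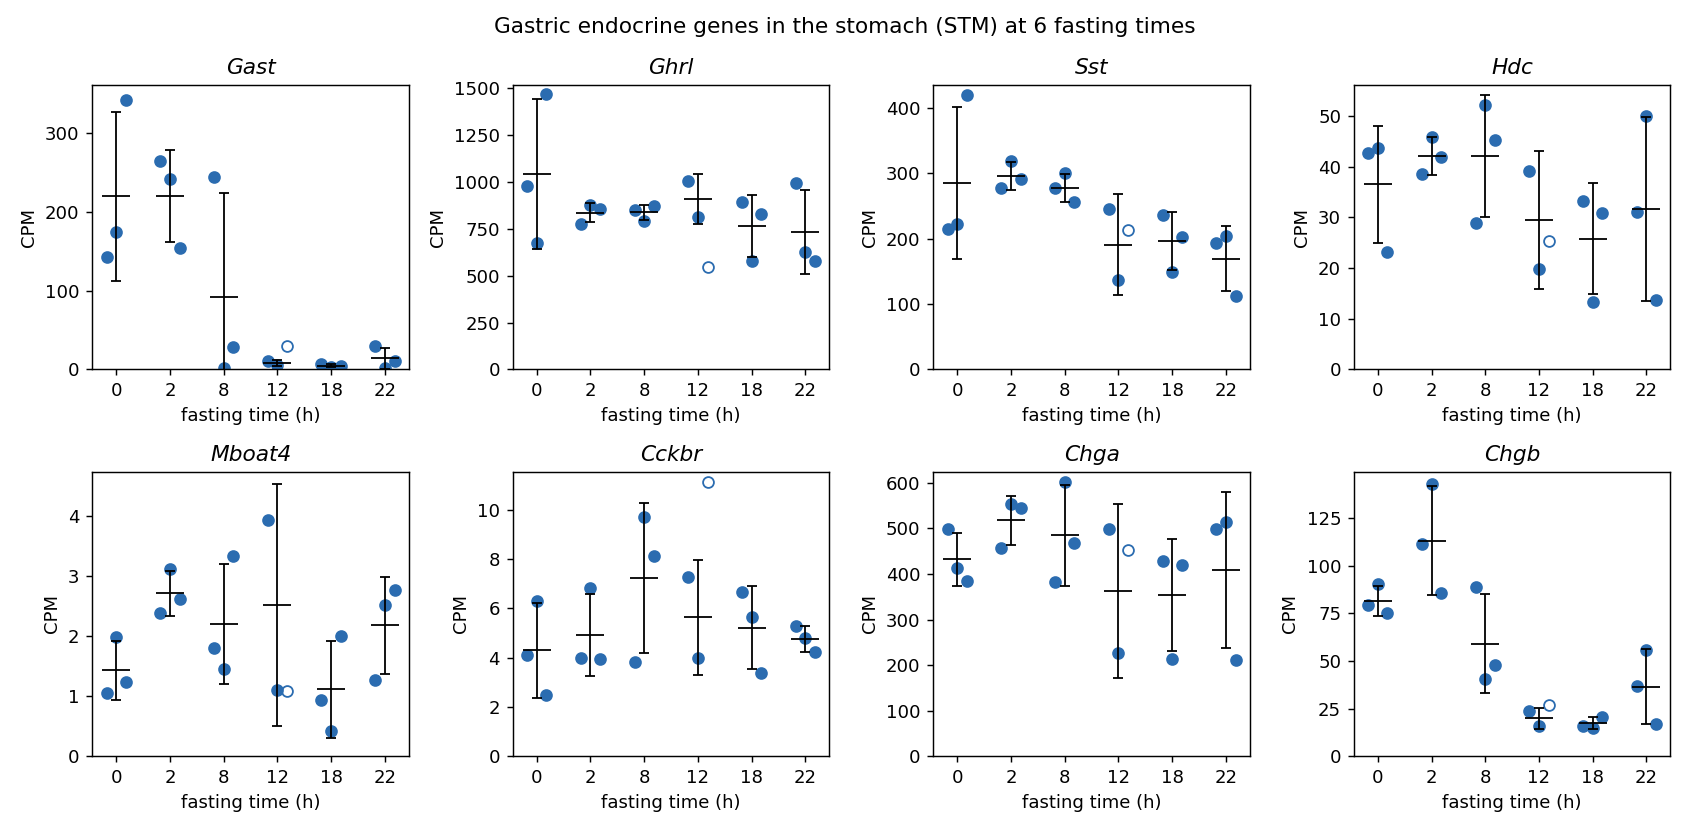
Level in CPM (y axis of each panel, its own linear scale) of 8 gastric endocrine genes in the stomach against fasting time in hours; each point is 1 library, lines and bars are the mean and SD of the libraries used, and the open point is the left-out 12 h replicate 3. Gast lay between 142.96 and 342 CPM at 0 and 2 h and between 2.18 and 29.2 CPM at 18 and 22 h, while Ghrl, Sst, Hdc, Mboat4, Cckbr and Chga overlapped between early and late times.

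Gast was high in every STM library of the first hours of the fast and low in every library from 12 h on. The libraries of 0 h held 142.96, 174 and 342 CPM, and those of 2 h 265, 242 and 153.8 CPM. At 8 h the values were 244, 1.88 and 28.8 CPM. The 2 libraries of 12 h held 10.4 and 5.22 CPM, those of 18 h 7.06, 3.30 and 4.42 CPM, and those of 22 h 29.2, 2.18 and 10.5 CPM. The 8 h mice were the mixed group: replicate 1 lay within the range of 0 and 2 h, while replicate 2 had the lowest Gast level of the 17 libraries. The left-out library of 12 h held 30.1 CPM, above the other libraries of 12, 18 and 22 h and below those of 0 and 2 h.

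The question of whether a long fast differs from its start was put by comparing 18 and 22 h with 0 and 2 h. Each side held 6 libraries labelled as separate mice. Since 18 h replicates 1 and 3 lay so close, the late libraries may not stand for 6 separate mice. Gast averaged 220 ± 77.1 CPM early and 9.44 ± 10.1 CPM late (SD, n = 6 each), and all 6 late libraries lay below all 6 early ones. In edgeR's quasi-likelihood test with Benjamini-Hochberg adjustment over 16281 genes the log2 fold change was -4.78 (SE 0.95, 95% interval -6.64 to -2.93, adjusted p = 0.00502), which is 27.5-fold lower. With 18 h replicates 1 and 3 summed it was -4.83 (adjusted p = 0.0165). In these bulk samples fewer G cells and less Gast RNA in each of them cannot be told apart, and the same holds for every gene described here. With lane as a term, which the 8 h libraries alone allow to be estimated, the log2 fold change was -2.71 with an adjusted p of 0.913; over the 9 alternative settings the adjusted p ran from 2.31e-07 to 0.913.

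Chgb, the gene of chromogranin B, fell as well. Its libraries held 79.4, 90.4 and 75.0 CPM at 0 h, 111.3, 142.999 and 85.6 CPM at 2 h, and 89.1, 40.5 and 47.98 CPM at 8 h. Later libraries held 23.8 and 16.1 CPM at 12 h, 16.1, 15.0 and 20.9 CPM at 18 h, and 37.1, 55.98 and 16.8 CPM at 22 h. No late library reached the lowest early one, and as for Gast the 8 h replicate 1 sat with the early libraries while replicates 2 and 3 lay under all of them. The mean went from 97.4 ± 25.6 to 26.97 ± 16.4 CPM (SD, n = 6 each), a log2 fold change of -1.98 (SE 0.26, 95% interval -2.50 to -1.46, adjusted p = 0.000418 in edgeR), or 3.95-fold lower, with 6 of 6 late libraries below every early one. With 18 h replicates 1 and 3 summed the adjusted p was 0.00207. With lane as a term the log2 fold change was -1.47 with an adjusted p of 0.90003, in a range of 4.75e-11 to 0.90003 over the 9 settings.

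Chga, the gene of chromogranin A and a general marker of endocrine cells, did not pass the test. It ranged from 384 to 553 CPM (median 477) at 0 and 2 h and from 210.5 to 515 CPM (median 425) at 18 and 22 h, a log2 fold change of -0.37 (SE 0.28, adjusted p = 0.347 in edgeR) with 2 of 6 late libraries below all early ones. Both genes code for granins of secretory granules. As a description added after seeing the data, the level of Chgb was also set against that of Chga in each library. This was done as a log2 ratio with 0.5 CPM added to each. It ran from -2.66 to -1.95 (median -2.27) early and from -4.69 to -3.19 (median -3.76) late. No test of this ratio is given, since the pair was chosen once Chgb and Chga had been compared. Pearson's r of log2 (CPM + 1) between Chga and Chgb was 0.612 over the 17 STM libraries. Whether both RNAs come from the same cells was not tested.

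Sst, the gene of somatostatin, the inhibitor of gastrin and acid release, held 215, 223 and 420 CPM at 0 h, 278, 319 and 291 CPM at 2 h, 277, 300 and 257 CPM at 8 h, and 246 and 136.25 CPM at 12 h. Libraries of 18 h held 237, 150 and 202 CPM and those of 22 h 192.8, 204 and 112.2 CPM. Of the 6 late libraries 5 lay below all early ones, and 18 h replicate 1 overlapped with the lower 0 h libraries. The log2 fold change was -0.75 (SE 0.25, 95% interval -1.23 to -0.27) with an adjusted p of 0.0363 in edgeR, so Sst passed on p and not on the fold limit of 1 on the log2 scale. Without 0 h replicates 1 and 3 it was -0.46 with an adjusted p of 0.242, and with 18 h replicates 1 and 3 summed the adjusted p was 0.0547. Leaving out 0 h replicate 3, any 2 h library, 18 h replicate 2 or 3, or 22 h replicate 3 alone ended this pass on p, with adjusted p between 0.0189 and 0.107 and log2 fold changes between -0.86 and -0.50 over all libraries left out singly. Over the 9 settings the adjusted p ran from 0.0161 to 0.976.

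Ghrl, the ghrelin gene, ranged from 677 to 1469 CPM (median 866) at 0 and 2 h and from 577 to 992 CPM (median 728) at 18 and 22 h, so the ranges overlapped, and 0 h replicate 3 was the highest library. The log2 fold change was -0.40 (SE 0.24, 95% interval -0.86 to 0.07, adjusted p = 0.232 in edgeR), and without 0 h replicates 1 and 3 it was 0.03. Mboat4, whose enzyme puts the acyl group on ghrelin, ranged from 1.06 to 3.12 CPM early and from 0.413 to 2.77 CPM late, with a log2 fold change of -0.40 (SE 0.41, adjusted p = 0.493). Genes on the opposite strand overlap both: Gm26982, annotated as antisense, at 1.31 to 4.90 CPM in STM, and Gm44033, a gene awaiting experimental support, at up to 4.71 CPM, lie across Ghrl, and the antisense gene Gm39158, at 0 in all STM libraries, lies across Mboat4. The sources used here do not say whether strand was used in counting, and reads of a gene and its partner on the other strand then cannot be told apart.

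Hdc, the gene of histidine decarboxylase, which makes histamine, ranged from 23.2 to 45.8 CPM (median 42.3) early and from 13.2 to 49.9 CPM (median 30.9) late. The late libraries spread on both sides of the early range, 2 below all of it and 1 above, and the log2 fold change was -0.50 (SE 0.33, adjusted p = 0.278 in edgeR). Cckbr, the gene of the gastrin and cholecystokinin B receptor, ranged from 2.48 to 6.83 CPM early and from 3.37 to 6.66 CPM late. Its log2 fold change was 0.07 (SE 0.31, 95% interval -0.54 to 0.68, adjusted p = 0.893), and no late library lay outside the early range.

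Read together, 2 of the 8 genes tested in STM, Gast and Chgb, passed both limits for 18 and 22 h against 0 and 2 h, beside 7.39% of all genes tested (1203 of 16281), and both were lower, beside 3.39% of all genes that passed as lower (552). Without the fold limit 3 of 8 passed, with Sst, beside 22.7% of all genes (3696). The median log2 fold change of the 8 genes was -0.45, with 7 negative and 1 positive, against a median of 0.01 over all genes with 8042 negative and 8239 positive. An alternative scaling by library totals moved the median of all genes at 18 h against 0 h to 0.19 and turned the split of called genes from 642 higher and 777 lower to 933 higher and 434 lower, and Gast and Chgb passed under it. With lane as a term no gene passed in edgeR, 0 of 16281, with 828 at an unadjusted p under 0.05; the tool DESeq2, run without lane, called 1447. With 18 h replicates 1 and 3 summed edgeR called 974 genes, Gast and Chgb among them.

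When all 6 times were tested jointly, Chgb passed alone, 1 of 8 beside 6.55% of all genes (1067), with an adjusted p of 0.00441, and Gast had an adjusted p of 0.0523. This call for Gast hung on single mice: without 8 h replicate 1, 8 h replicate 2 or 22 h replicate 1 both genes passed, and the adjusted p of Gast ran from 0.0117 to 0.146 over the 17 libraries left out in turn. The share of all genes that passed ran from 0.701% to 10.7% in the same way, and was 0.768% with 18 h replicates 1 and 3 summed, where Chgb had an adjusted p of 0.02702. DESeq2 called 2 of the 8 and 2805 of all genes.

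Set against 0 h singly, the fasting times came out unevenly. At 2, 8 and 12 h no gene of the 8 passed, and none of all 16281 did (0% each). Unadjusted p under 0.05 was found for 1054, 361 and 1256 genes at these times, and DESeq2 called 2, 0 and 15 genes, with Chgb among the last. The Gast log2 fold change in edgeR was -0.21 (SE 1.12) at 2 h, -1.49 (SE 1.14) at 8 h and -4.87 (SE 1.61, adjusted p = 0.597) at 12 h, and that of Chgb 0.31 (SE 0.36), -0.57 (SE 0.36) and -2.06 (SE 0.44, adjusted p = 0.498).

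At 18 h Gast and Chgb passed, 2 of 8 beside 8.72% of all genes (1419), and lower, as were 4.77% of all genes (777). Gast had a log2 fold change of -5.72 (SE 1.41, adjusted p = 0.0220) and Chgb of -2.43 (SE 0.38, adjusted p = 0.00254), each lower in 3 of 3 libraries than in any of 0 h. With 18 h replicates 1 and 3 summed, Chgb passed alone with an adjusted p of 0.0191, Gast had 0.0809, and 516 genes passed in all. Without 0 h replicates 1 and 3 a single 0 h library is left and the spread comes from the other times; neither gene passed then, with log2 fold changes of -5.15 (adjusted p = 0.209) for Gast and -2.39 (adjusted p = 0.124) for Chgb. Leaving out 0 h replicate 3 or any of the 18 h libraries singly left Chgb alone past the limits. At 22 h none of the 8 passed, beside 0.233% of all genes (38), with log2 fold changes of -4.06 (SE 1.28, adjusted p = 0.114) for Gast and -1.23 (SE 0.36, adjusted p = 0.0905) for Chgb. An unadjusted p under 0.05 was found there for 3519 genes, DESeq2 called 624 genes with Gast and Chgb among them, and without 22 h replicate 2 Chgb passed in edgeR with an adjusted p of 0.0377.

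The libraries of 8 and 12 h together, 5 in number, were compared with the 6 of 0 and 2 h to ask how early the levels moved. None of the 8 genes passed in edgeR, as none of all genes did (0%), with 818 genes at an unadjusted p under 0.05 and 11 called by DESeq2. For both Gast and Chgb 4 of these 5 libraries lay below all early ones, with log2 fold changes of -3.08 (SE 0.97, adjusted p = 0.826) for Gast and -1.47 (SE 0.28, adjusted p = 0.458) for Chgb. Chgb was the gene of the 8 that DESeq2 called, with an adjusted p of 0.00111, and it also passed in edgeR without 8 h replicate 1 or without 22 h replicate 3. The adjusted p of Chgb in this comparison ran from 0.00111 to 1.00 over the 9 settings.

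Other genes of gastric endocrine cells were described from lists of known genes, with all 18 h libraries kept apart. Beside each list, 7.39% of all genes tested passed at 18 and 22 h, and 3.39% passed as lower. Of 15 transcription factor genes of endocrine cells 6 could be tested, and 2 passed as lower at 18 and 22 h, with a list median of -1.16. These were Insm1, a zinc finger factor of endocrine differentiation, with a log2 fold change of -2.60 (adjusted p = 0.00120), and Nkx6-3, a homeobox factor of the antrum needed for G cells, with -2.39 (adjusted p = 0.00904). Insm1 held 0, 0.138 and 0.211 CPM at 18 h, under the 3-count floor, so the size of its change is poorly set. At 22 h it held 1.38, 2.06 and 1.61 CPM, against 1.98 to 4.43 CPM early, so the ranges overlapped. Nkx6-3 was the most abundant of the list in every early library and Isl1, at 0.63 (adjusted p = 0.0624), in every late one, and Pax4 and Hhex were at 0 in every library. The summed level of the list was 45.2 to 86.3 CPM early and 26.9 to 68.8 CPM late.

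The 14 genes of prohormone processing and secretory granules were all tested, and 2 passed as lower with a list median of -0.05. The prohormone convertase gene Pcsk1 ranged from 7.74 to 13.5 CPM early and up to 6.98 CPM late (log2 fold change -1.05, adjusted p = 0.00229), with 6 of 6 late libraries below all early ones. The granule membrane gene Ptprn2 had a mean of 47.04 ± 11.04 CPM early and 13.2 ± 12.6 CPM late (log2 fold change -2.12, adjusted p = 0.00719), with 5 of 6 late libraries below all early ones. Cpe, the most abundant of the list and the gene of carboxypeptidase E, went the other way, with a log2 fold change of 0.94 (adjusted p = 0.00837) that stayed under the fold limit, and the summed level was 417 to 610 CPM early and 384 to 1000.1 CPM late. Of 4 genes of amine synthesis and vesicle transport, tested in full, Tph1, the serotonin-synthesis gene of enterochromaffin cells, passed as lower. It ranged from 3.04 to 13.4 CPM early and up to 1.49 CPM late (log2 fold change -2.66, adjusted p = 0.000667), while the vesicle transporter gene Slc18a2, the most abundant, stood at -0.02, with a list median of -0.97 and a summed level of 34.6 to 62.7 CPM early and 23.1 to 45.4 CPM late.

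Of 13 other gut hormone genes 12 were in the table and 9 could be tested, and 4 passed as lower and 1 as higher, with a median of -0.66. The proglucagon gene Gcg had a log2 fold change of -2.01, Pyy, the peptide YY gene, -1.50, the gastric inhibitory polypeptide gene Gip -3.88 and the leptin gene Lep -4.80. Lep and Gip lay at or under the 3-count floor in most late libraries, so the size of their change is poorly set. Gip reached the filter level of 1.14 CPM at 0 and 2 h and later in 22 h replicate 1 alone, and Lep at 0 and 8 h alone. Both could thus be tested only through libraries in which they were high, and their calls as lower are not on a par with the share over all genes. The galanin gene Gal had a log2 fold change of 1.14 (adjusted p = 0.0287) with 5 of 6 late libraries above all early ones, and the summed level, led by Nucb2 early and by Penk in 5 of 6 late libraries, was 79.3 to 117.9 CPM early and 93.5 to 143.4 CPM late.

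Of 14 receptor genes through which the products of the 9 genes act, 5 could be tested. Among these 0 passed, beside 7.39% of all genes tested, with a median of -0.39. Ghsr, the ghrelin receptor gene, was at 0 in every STM library. The histamine receptor gene Hrh2 of parietal cells stood at a log2 fold change of -0.10 (adjusted p = 0.816), the somatostatin receptor gene Sstr2 at -0.66 (adjusted p = 0.0978) and the cholecystokinin A receptor gene Cckar at -0.74 (adjusted p = 0.0698). The summed level, led by Sort1, was 194 to 295 CPM early and 174 to 249 CPM late. Of 11 nutrient and neural sensing receptors of endocrine cells 6 could be tested and 0 passed, with a median of -0.33 and a summed level, led by Adcyap1r1, of 51.5 to 62.4 CPM early and 36.5 to 59.2 CPM late. In the comparison of 8 and 12 h with 0 and 2 h, 0 genes of any list passed in edgeR.

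Markers of other stomach cells moved over the same mice, and their part in the results above was not tested. Of the 7 parietal cell genes 5 passed as lower (Atp4a, Kcnq1, Kcne2, Slc26a7 and Gif), with a median of -1.03 and a summed level, led by Atp4a, of 7444 to 12182 CPM early and 2712 to 9920.03 CPM late. Of 6 surface and neck mucous cell genes 3 passed as lower (Muc5ac, Gkn2 and Tff2), with a median of -1.24 and a summed level, led by Gkn1, of 30502 to 89050.5 CPM early and 11627 to 46030.3 CPM late. Of 6 chief cell genes 5 were tested and 0 passed, with a median of -0.64 and a summed level, led by Pgc, of 173962 to 222244 CPM early and 93708 to 220178 CPM late, and Lipf was at 0. The early and late sums overlapped in all 3 lists, and no list was tested as a whole.

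Wall and squamous genes lay the other way. The 6 smooth muscle genes were all positive with a median of 0.73, 1 of them, Des, passed as higher, and their summed level, led by Myh11, was 5849 to 8647 CPM early and 7178 to 22303 CPM late. The 8 genes of the squamous forestomach, led by Krt4 early and Lor late, were all positive with a median of 0.55 and 0 passed, with a summed level of 1580 to 5508 CPM early and 671 to 7288 CPM late. Of 10 mast cell genes, which bear on Hdc because mast cells also make histamine, 9 were tested and Mcpt2 passed as lower, with a median of 0.02 and a summed level, led by Kit, of 45.98 to 90.7 CPM early and 43.6 to 85.4 CPM late.

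Genes of the neighbouring organs were also present in the STM libraries. Of 10 pancreatic acinar genes 6 were tested and 2, Cela1 and Cela2a, passed as lower, with a median of -2.62 and a summed level, led by Cela1, of 110.2 to 579 CPM early and 26.9 to 59.03 CPM late. Cela2a held at most 0.687 CPM late, under the filter level of 1.14 CPM, so it could be tested only through earlier libraries. Of 5 islet genes Gcg alone was tested, and the summed level was 2.66 to 35.1 CPM early and 0.146 to 2.06 CPM late. Of 9 genes of the small intestinal epithelium 6 were tested and Fabp2, Alpi and Apoa4 passed as lower, with a median of -0.85 and a summed level, led by Rbp2, of 155.6 to 450.4 CPM early and 97.1 to 175 CPM late. The share of duodenum or pancreas in each dissected stomach was not tested.

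The antral genes bear most directly on Gast, since G cells lie in the antrum. Of the 5 on the list 3 passed as lower late in the fast, with a list median of -2.39: Pdx1, a homeobox factor of the antrum and duodenum, with a log2 fold change of -2.68 (adjusted p = 0.0114), Nkx6-3, and the water channel gene Aqp5 with -2.54 (adjusted p = 0.00136). Aqp5 ranged from 35.7 to 59.9 CPM early and up to 13.9 CPM late, and Pdx1 from 6.47 to 14.7 CPM early and up to 4.25 CPM late, with 6 of 6 late libraries below all early ones for all 3 genes. Aqp5 had the highest early mean of the list and Gata5 the highest late mean. Gata5 had a log2 fold change of -0.67 (adjusted p = 0.0901) and the chymosin gene Cym -0.83 (adjusted p = 0.384), and no gene of the list was at 0 throughout. The summed level was 109.7 to 164.99 CPM early and 32.1 to 79.5 CPM late.

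**Figure D2:**
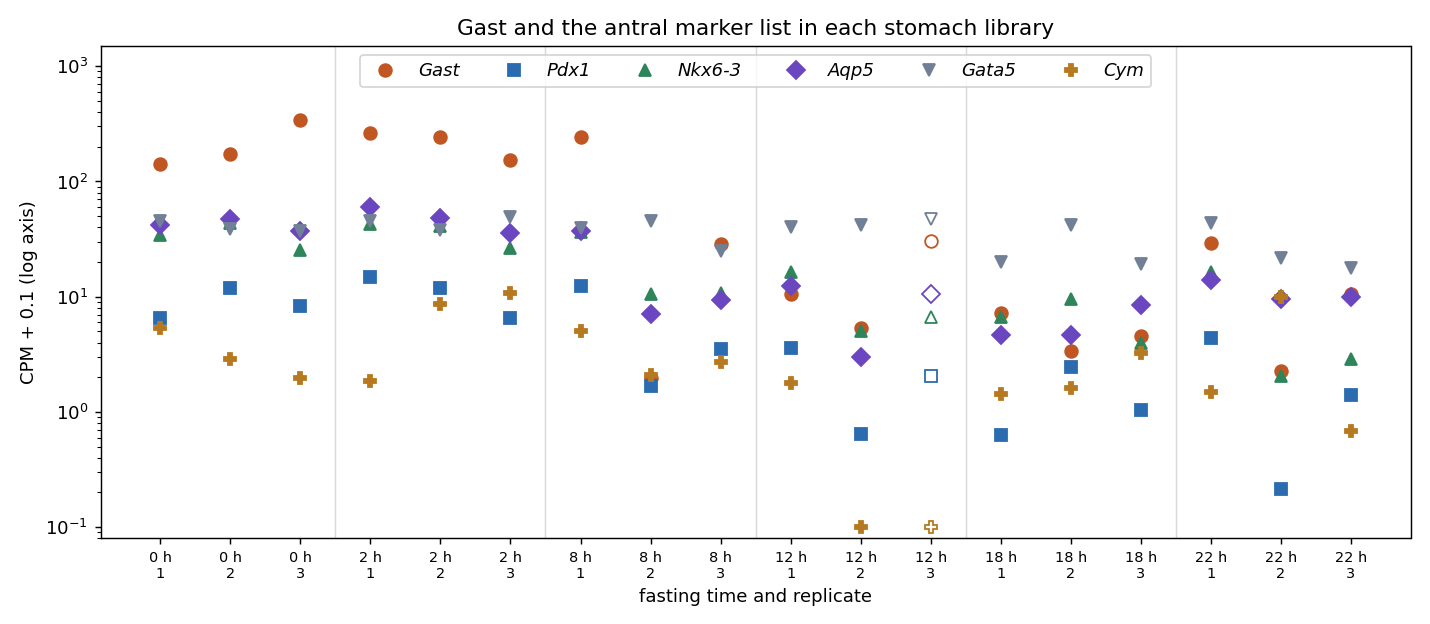
Level of Gast and of the 5 antral marker genes in each stomach library, in CPM with 0.1 added (log axis), against fasting time and replicate; open symbols mark the left-out 12 h replicate 3. At 8 h, Gast, Pdx1, Nkx6-3 and Aqp5 lay near their early levels in replicate 1 and below their early ranges in replicates 2 and 3.

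At 8 h the 3 antral genes that passed differed between mice. Replicate 1 held 12.3 CPM of Pdx1, 36.2 of Nkx6-3 and 36.9 of Aqp5, whereas replicate 2 held 1.57, 10.4 and 6.99 CPM and replicate 3 held 3.41, 10.7 and 9.26 CPM. The same replicate 1 alone had an early level of Gast. Gata5 did not follow this, with 39.4, 44.97 and 24.9 CPM in the 3 libraries, and among the early libraries 0 h replicate 3 had the highest Gast level beside the lowest sum of antral genes. How much antrum each dissected stomach held is not given in the sources used here, and its part in the fall of Gast was not tested.

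The level of Gast was also set against the mean of the 5 antral genes in each library, on the log2 scale with 0.5 CPM added, a description added after seeing the data. The difference ran from 2.89 to 4.52 (median 3.21) in the early libraries and from -0.93 to 1.58 (median 0.37) in the late ones. Since Gast had already been seen to separate early from late libraries, no test of this ratio is given. At 8 h the values were 3.56, -1.59 and 1.87. Gata5 and Cym, which did not pass, are part of this mean, and the ratio does not measure the share of antrum.

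Across organs the genes fell into those near confined by level to STM and those shared with the brain. Adjacent organs in the order of mean CPM were compared in edgeR with the mouse as a block, since each mouse gave every organ, and pairs with no more than 3 counts in every library of both organs were not tested. Of 72 adjacent pairs over the 9 genes 62 were tested and 32 differed at an adjusted p under 0.05, whichever the direction. The order of means need not hold for most libraries: for Ghrl, BRN came before LIV by mean (0.286 and 0.216 CPM), with medians of 0 and 0.229 CPM. Over all genes 74.4% of gene and pair tests passed. Those tests were not limited to organs adjacent in each gene's own order, so this share is not on a par with that of the 9 genes.

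**Figure D3:**
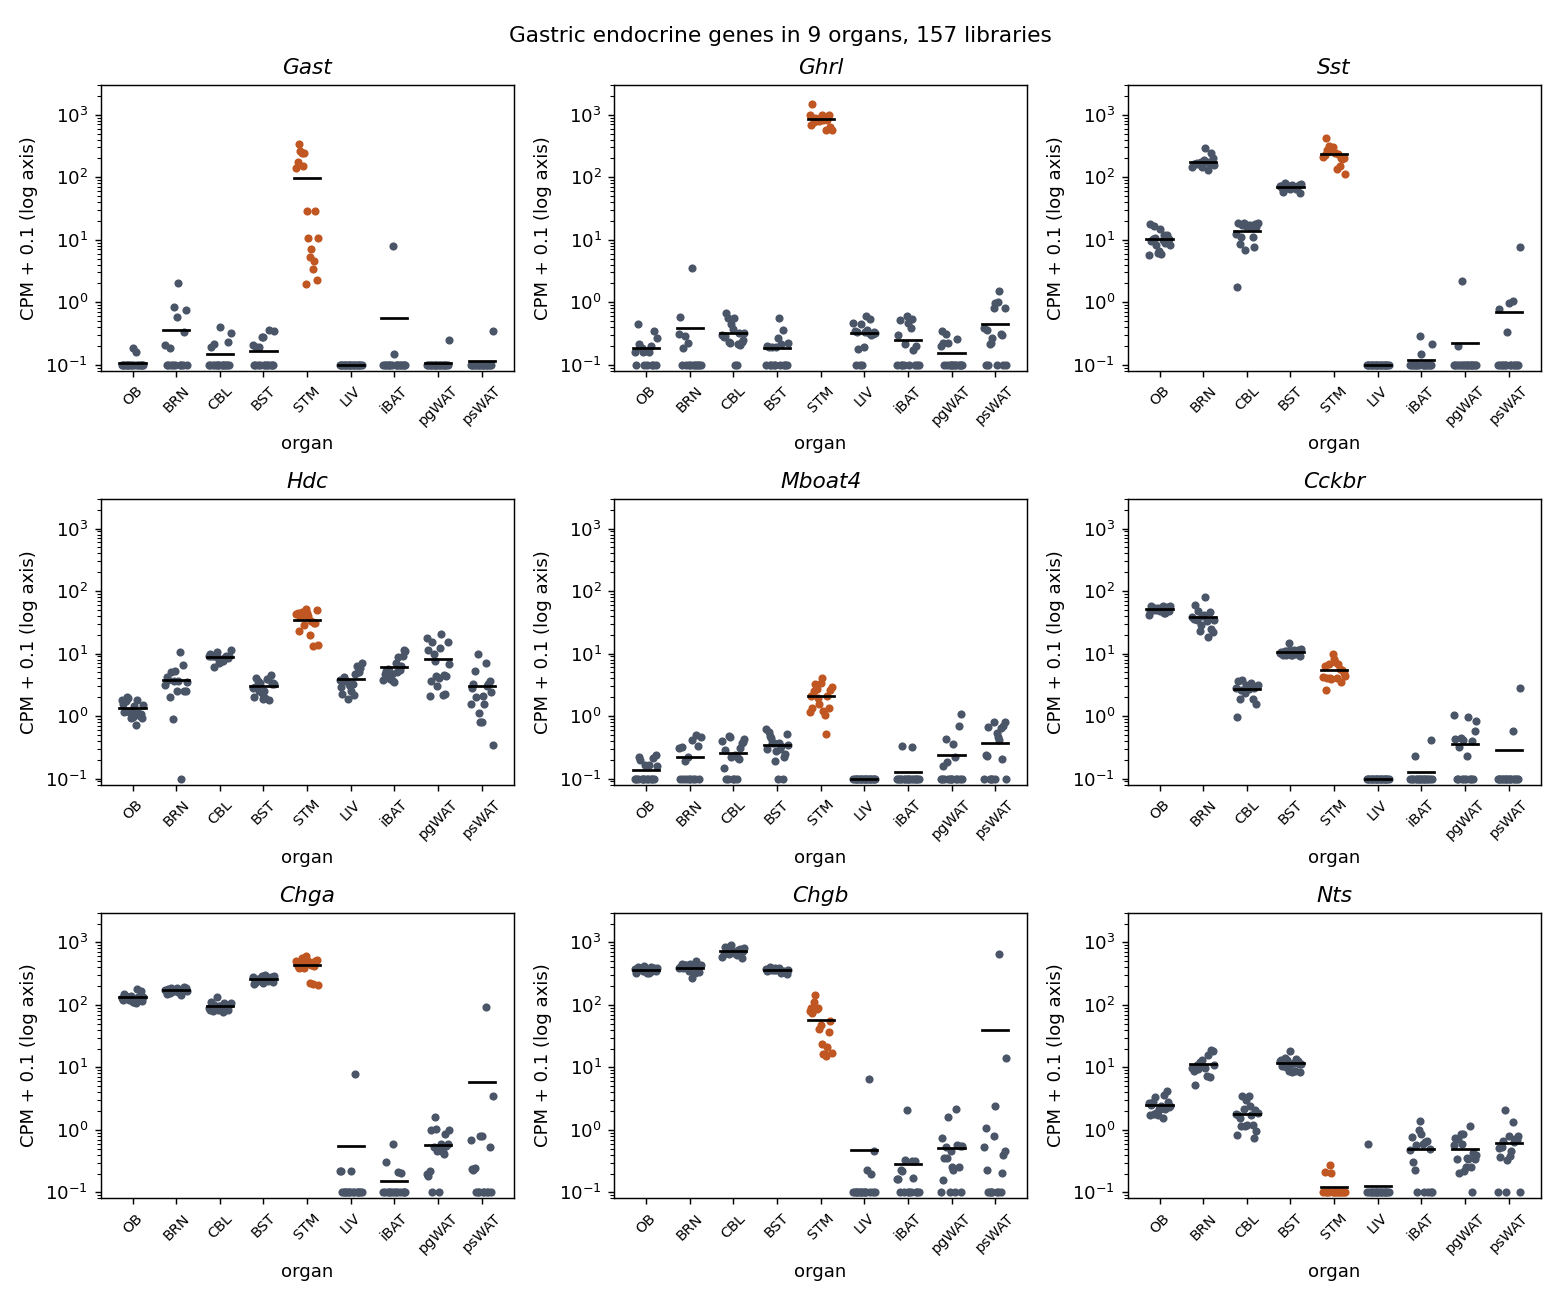
Level of each of the 9 genes in 9 organs, in CPM with 0.1 added (log axis); each point is 1 library, the line is the mean, and STM is drawn in orange. Gast, Ghrl and Mboat4 had their highest mean in STM, Sst and Chga were high in STM and in brain regions, and Nts lay at the floor in STM.

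Ghrl averaged 851 ± 207 CPM in STM (SD, n = 17; 577 to 1469, median 850) and at most 0.353 CPM in any other organ, with psWAT next. The step from STM to psWAT was 12.06 on the log2 scale (adjusted p = 8.07e-70 in edgeR), and the later steps were among levels of 11 counts or fewer in any library. Gast averaged 98.0 ± 116.7 CPM in STM (n = 17; 1.88 to 342, median 28.8), against 0.469 CPM in iBAT, where 15 of 17 libraries were at 0 and 8 h replicate 2 held 7.92 CPM, and 0.262 CPM in BRN. STM differed from iBAT by 8.14 on the log2 scale (adjusted p = 1.26e-26), iBAT from BRN and BRN from BST did not (adjusted p = 0.419 and 0.106), and in LIV all 18 libraries were at 0. Mboat4 averaged 2.00 ± 0.969 CPM in STM (n = 17) and at most 0.269 CPM elsewhere, and the step to psWAT alone passed (adjusted p = 1.14e-12).

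Sst and Chga were led by STM with brain regions next. Sst averaged 239 ± 74.7 CPM in STM, 178 ± 41.01 in BRN, 69.8 ± 6.28 in BST, 13.8 ± 4.96 in CBL and 10.1 ± 3.48 in OB, and of these steps CBL against OB did not pass (adjusted p = 0.228). Chga averaged 430.2 ± 117.9 CPM in STM, 261 ± 25.7 in BST, 170.4 ± 14.2 in BRN, 131.8 ± 19.4 in OB and 95.6 ± 13.9 in CBL. STM exceeded BST (adjusted p = 0.000887), and the steps from BST to BRN, OB and CBL did not pass (adjusted p = 0.110, 0.214 and 0.196), although the lowest BST library, at 219 CPM, lay above the highest of BRN, at 195.04. Hdc averaged 34.9 ± 12.0 CPM in STM, above CBL with 8.62 ± 1.28 (adjusted p = 1.15e-21), and CBL, pgWAT, iBAT and LIV in turn did not differ from their neighbours (adjusted p = 0.870, 0.303 and 0.0912).

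The other 3 genes were led by the nervous system. Chgb averaged 726 ± 96.7 CPM in CBL, 396 ± 58.2 in BRN, 367 ± 31.5 in OB and 359 ± 24.2 in BST, steps that did not pass (adjusted p = 0.146, 0.713 and 0.886) although the lowest CBL library, at 558 CPM, lay above the highest of BRN, at 495, and 56.7 ± 38.7 CPM in STM, below BST (adjusted p = 3.11e-06). Cckbr averaged 51.2 ± 4.71 CPM in OB, 37.9 ± 15.5 in BRN and 10.5 ± 1.33 in BST, then 5.33 ± 1.91 in STM and 2.58 ± 0.738 in CBL, and only the step from OB to BRN among these did not pass (adjusted p = 0.0927). Nts averaged 11.51 ± 2.46 CPM in BST and 11.1 ± 3.74 in BRN, which did not differ (adjusted p = 0.833), then 2.36 ± 0.705 in OB and 1.70 ± 0.841 in CBL, with LIV and STM lowest at 0.0269 and 0.0231 CPM, the former from 4 counts in a single library. Single libraries of organs low in granins stood out: psWAT 12 h replicate 3 held 664 CPM of Chgb and 91.3 CPM of Chga, against means of 1.21 and 0.391 CPM in the other psWAT libraries, and LIV 18 h replicate 1 held 7.79 CPM of Chga and 6.34 CPM of Chgb.

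The same comparison of 18 and 22 h with 0 and 2 h was made in the other organs for the genes that passed the filter there. In OB, BRN, CBL and BST 6 genes were tested (Sst, Hdc, Cckbr, Chga, Chgb and Nts) and 0 passed, beside 0.197%, 1.97%, 0.131% and 0% of all genes in that order. In LIV, iBAT and pgWAT Hdc alone was tested and did not pass, beside 1.38%, 12.7% and 0.00609% of all genes, and in psWAT 0 of 2 (Hdc and Chgb) passed, beside 0%. DESeq2 called none of the genes in these 8 organs. All genes with an unadjusted p under 0.05 in edgeR numbered 4209, 4597, 3059 and 1945 in OB, BRN, CBL and BST, 4192 in LIV, 6760 in iBAT, 3315 in pgWAT and 1142 in psWAT.

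Among the 9 genes an unadjusted p under 0.05 was reached by Nts in BRN, Chgb in BST and Hdc in LIV and iBAT. Nts in BRN had a log2 fold change of 0.69 (adjusted p = 0.139), and Chgb in BST of -0.14 (adjusted p = 0.160). Hdc in LIV ranged up to 4.17 CPM early and averaged 5.65 ± 0.906 CPM late, a log2 fold change of 0.68 with an adjusted p of 0.0219, and in iBAT it ranged up to 5.57 CPM early and averaged 8.58 ± 2.64 CPM late, with 0.83 and an adjusted p of 0.00667, both under the fold limit. In LIV all libraries of 0 and 2 h were on lane 1 and all of 18 and 22 h on lane 2, and early and late libraries had no lane in common in OB and pgWAT either, so there too lane and a long fast are linked except through libraries of 8 and 12 h, and no lane term was fitted. By the measure used for STM, LIV 0 h replicates 1 and 2 were also close to each other, at 0.15 against 0.49 for the next closest LIV pair, as were iBAT 8 h replicates 2 and 3 at 0.30 against 0.47, so the early LIV libraries may not stand for 6 separate mice. The difference between the change in STM and that in another organ was tested for 68 pairs of gene and organ, and 7 passed at an adjusted p under 0.05, beside 14.1% of all genes. Genes at 0 in every library of the other organ, such as Gast and Sst in LIV, could not pass, so these shares are not on a par. Some genes near 0 there had very large standard errors, such as Gast in iBAT (SE 60878). Chgb passed against pgWAT, where its mean was 0.409 CPM. Of the 7, 5 were of Chgb, whose change in STM was lower than in OB, BRN, CBL, BST and pgWAT. This test does not use the pairing of organs by mouse: the difference from pgWAT did not pass with the animal number as replicate block or with no filter, and neither of the differences from BRN passed with all libraries.

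For each gene tested in STM the 3 genes of most similar level were found by Pearson's r of log2 (CPM + 1) over the 17 STM libraries. The libraries share depth, lane and dissection, so r is a description only. Gast went with Kcne3 (r = 0.951), Fcgbp (0.943) and Prss32 (0.939), which had log2 fold changes of -2.75, -3.09 and -2.90 late against early, and Chgb with Eps8 (0.937), Pgm3 (0.930) and Lima1 (0.926). Hdc and Chga were each other's closest gene (r = 0.939), and next to them came Zbtb22 (0.90007) and Furin (0.888) for Hdc and Pclo (0.9002) and Pnliprp2 (0.896) for Chga. Ghrl went with Tor2a (0.913), Tmem238 (0.864) and Sdsl (0.857), and Sst with St3gal6 (0.903), Auh (0.885) and Pnliprp1 (0.884). The low genes had looser company, with Sertad4 (0.802), Zfp664 (0.790) and Ccnt1 (0.786) for Mboat4 and Map3k7 (0.740), Fnip2 (0.706) and Afap1l1 (0.698) for Cckbr. Among the 9 genes themselves Gast was closest to Chgb (r = 0.813) and had r = 0.216 with Hdc and -0.33 with Cckbr.

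The genes lie on 8 chromosomes of the mouse genome, build GRCm38. Gast spans chr11:100334407-100336996 on the plus strand with 460 bases of merged exon, Chgb chr2:132781278-132795079 on the plus strand with 2740, and Chga chr12:102554969-102565028 on the plus strand with 2756. Sst spans chr16:23889573-23890958 on the minus strand with 721 bases and Ghrl chr6:113716119-113719880 on the minus strand with 1079. Hdc lies at chr2:126593667-126619299 on the minus strand, Mboat4 at chr8:34115030-34125182 and Cckbr at chr7:105425731-105470898 on the plus strand, and Nts at chr10:102481756-102490486 on the minus strand.

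Promoters of Gast, Chgb, Chga and Sst are shown because cyclic AMP acts through a known response element in several neuroendocrine promoters. RefSeq promoter windows (GRCm38.p6) of 300 bases were matched for 8 of the 9 genes, and Mboat4 was not among them. The windows were searched on both strands for the cyclic AMP response element TGACGTCA, for its half-site TGACG outside such elements, and for the TATA box TATAAA. The full element was found in 2 of the 8 genes, Sst and Chgb, and in 1.79% of 32851 promoters of the same length. The half-site or full element was found in Sst, Chga, Chgb and Nts and in 20.8% of all promoters, and the TATA box in Gast and Chga and in 13.6%. Offsets count from the RefSeq start, which is the Gencode start for Gast and lies inside the Gencode span for Chgb and Sst and before it for Chga: the TATA box of Gast lay at -28 on the minus strand reading, the full element at -48 in Sst and -72 in Chgb, and the half-site at -44 in Chga. The TATA letters of Chga lay at 5, past the RefSeq start and before the Gencode start, and the elements of Sst and Chgb lie inside the Gencode spans. A match is a description of letters and not of binding. In the windows of Gast (chr11:100334157-100334456, plus strand), Chgb (chr2:132781392-132781691, plus strand), Chga (chr12:102554691-102554990, plus strand) and Sst (chr16:23890795-23891094, minus strand), capitals mark these matches.
Gast: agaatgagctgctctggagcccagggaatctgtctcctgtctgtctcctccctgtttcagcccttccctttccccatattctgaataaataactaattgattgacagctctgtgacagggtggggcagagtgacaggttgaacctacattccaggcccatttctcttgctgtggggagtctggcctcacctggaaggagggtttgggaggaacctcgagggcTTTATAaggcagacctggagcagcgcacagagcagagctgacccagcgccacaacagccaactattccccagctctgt
Chgb: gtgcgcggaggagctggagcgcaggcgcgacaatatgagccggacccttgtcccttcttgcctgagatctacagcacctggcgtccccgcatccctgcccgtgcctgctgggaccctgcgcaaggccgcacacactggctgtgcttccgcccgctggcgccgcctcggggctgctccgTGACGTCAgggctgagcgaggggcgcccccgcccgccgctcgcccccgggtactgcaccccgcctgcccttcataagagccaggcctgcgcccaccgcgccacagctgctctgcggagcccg
Chga: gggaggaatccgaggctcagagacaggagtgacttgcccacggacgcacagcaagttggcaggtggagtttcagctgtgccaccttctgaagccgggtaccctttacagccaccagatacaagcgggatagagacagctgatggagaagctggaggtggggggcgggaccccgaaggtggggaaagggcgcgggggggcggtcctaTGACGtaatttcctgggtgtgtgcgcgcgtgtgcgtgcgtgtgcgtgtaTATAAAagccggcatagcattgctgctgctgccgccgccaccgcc
Sst: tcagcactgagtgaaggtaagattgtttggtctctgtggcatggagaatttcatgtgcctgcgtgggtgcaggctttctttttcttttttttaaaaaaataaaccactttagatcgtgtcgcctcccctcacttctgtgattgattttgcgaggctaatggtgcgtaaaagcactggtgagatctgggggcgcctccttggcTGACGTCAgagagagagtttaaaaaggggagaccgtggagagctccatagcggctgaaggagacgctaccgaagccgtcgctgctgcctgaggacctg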

How the data were processed

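Messenger RNA of 9 organs from 18 mice was sequenced in pairs from stranded TruSeq libraries. The authors aligned reads with TopHat2 2.1.1 to GRCm38.p5 and deposited HTSeq 0.9.1 counts per gene of Gencode M16; the strand setting of the counting is not given in the sources used here. The count table was used as deposited, with 5 libraries of low total left out as by the study. Each organ kept genes reaching a CPM worth 10 counts in a library of median size in at least 3 libraries. Main tests were edgeR 4.0.16's quasi-likelihood test (TMM factors, robust dispersions, R 4.3.3) with Benjamini-Hochberg adjustment over all genes kept. Tests between organs used a trended dispersion over all 9 organs instead. Calls were made below an adjusted p of 0.05 when the absolute log2 fold change passed 1, or on p alone for joint, organ and difference tests. Simulated data covered STM alone, for 18 and 22 h against 0 and 2 h and for the joint test. Of 200 genes changed 4-fold, 173 and 159 were recovered, with 5 and 11 false calls. The simulation held no lane effect and no close pair of libraries, and the other tests were not simulated. Alternatives were DESeq2 1.42.0, size factors, library totals, no filter, all libraries, a lane term, a replicate block, and leaving out each library. Exon lengths and positions came from Gencode M21. Genes were named if members, on the marker and pathway lists, or among the 3 most correlated with a member. Members and lists were chosen with earlier results of these data known.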

Additional observations from a re-analysis of the deposited data

Results flagged for a closer look

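Among 26 groups of pooled STM libraries tested with Dixon's ratio, 3 held a library far from the others, and chance marks about 1 in 20 groups. Sst in 12 h replicate 2 was 136.25 CPM, the lowest of 8 and 12 h. Hdc in 0 h replicate 3 was 23.2 CPM, the lowest of 0 and 2 h. Nts in 8 h replicate 1 was 0.106 CPM, which is a single read pair against 0 in the other 4 libraries.

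In the interaction test of edgeR 7 of 68 cases passed, beside 14.1% of all genes. In these the change from 0 and 2 h to 18 and 22 h differed between STM and another organ. Genes at 0 in every library of the other organ could not pass, and the pairing of organs by mouse was not used. For Chgb the STM change was lower than that of OB by -1.98 on the log2 scale, of BRN by -2.05, of CBL by -1.99, of BST by -1.82 and of pgWAT by -3.02. The last rests on a mean of 0.409 CPM in pgWAT and did not pass with no filter or with the animal number as replicate block. For Sst the difference from BRN was -0.99, and for Hdc the difference from iBAT was -1.39.

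In the 5 libraries left out for low totals, 5 of 45 values held more than 3 counts and lay above every 0 h library of their organ. Chga was 200.1 CPM in BRN 18 h replicate 1, Cckbr 11.1 CPM in STM 12 h replicate 3, Hdc 30.4 CPM and Nts 6.67 CPM in iBAT 22 h replicate 1, and Hdc 4.08 CPM in psWAT 22 h replicate 2.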

How the results depend on the processing

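Of 396 values recomputed under other settings 345 gave the same call and direction or a like count, 45 another call or count and 6 the other direction; of 708 with a library left out these were 653, 46 and 9. Causes were not tested. With lane as a term the count of the 8 genes called in STM went from 2 to 0 for 18 and 22 h against 0 and 2 h, from 1 to 0 jointly and from 2 to 0 at 18 h. DESeq2 called 1 in place of 0 at 8 and 12 h, 2 in place of 1 jointly, 1 in place of 0 at 12 h and 2 in place of 0 at 22 h. With 18 h replicates 1 and 3 summed 1 was called at 18 h, and 0 without 0 h replicates 1 and 3, where 0 h holds a single library, so each time against 0 h has no replicate on that side; both were chosen after seeing the data. Hdc was called in LIV (1) and iBAT (1) with no fold limit and in iBAT (1) with all libraries, and Chgb in LIV (1) with no filter. The STM and BRN difference went from 2 genes to 0 with all libraries, and the STM and pgWAT difference from 1 to 0 with no filter.

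Leaving out each library gave 0 to 1 gene at 8 and 12 h, 1 to 2 jointly, 1 to 2 at 18 h and 0 to 1 at 22 h. Unchanged under each library left out was the count of 2 for 18 and 22 h, with log2 fold changes of -5.45 to -4.49 for Gast and -2.19 to -1.79 for Chgb.

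Directions that turned were of genes that did not pass. Without 0 h replicates 1 and 3, Ghrl was 0.0295 late and 0.34 at 8 and 12 h, Cckbr -0.13 late and Chga 0.00736 at 8 and 12 h. With lane, Mboat4 was -0.34 and Chga 0.0384 at 8 and 12 h. With a library left out, Cckbr late ran from -0.0392 to 0.23, and at 8 and 12 h Ghrl ran from -0.23 to 0.13, Hdc from -0.42 to 0.13, Mboat4 from -0.34 to 0.63 and Chga from -0.50 to 0.12.

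With a replicate block 2 of the 8 genes were called jointly in place of 1, and at 22 h 2 of all genes in place of 38. Replicate numbers stand for different mice at each time: same-numbered STM libraries had a mean correlation of deviations of 0.00459 (-0.301 to 0.475, 40 pairs). With the animal number as replicate block, in which each mouse gave both organs, the STM and pgWAT difference went from 1 gene to 0.

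Counts over all genes that moved by over 1.5 times were, for 18 and 22 h, 1203 against 3696 with no fold limit, 0 with lane and 608 without 0 h replicates 1 and 3. For 8 and 12 h 0 became 11 with DESeq2, 2 with no filter, 1 without those 0 h libraries and 0 to 10 with a library left out. Jointly 1067 (6.55% of genes tested) became 2805 with DESeq2, 0 with lane, 0.768% of genes with 18 h libraries summed, 709 genes without the 0 h libraries and 0.701% to 10.7% of genes (up to 1742) with a library left out. At 2 h 0 became 2 with DESeq2 and 0 to 5 with a library left out, as at 8 h (0 to 5), and at 12 h 0 became 15 with DESeq2 and 1 with no filter. At 18 h 1419 became 2333 with no fold limit, 0 with lane, 516 summed, 0 without the 0 h libraries and 498 to 2103 with a library left out. At 22 h 38 became 624 with DESeq2, 18 by totals, 274 with no filter, 25 summed, 0 with all libraries, with lane or without the 0 h libraries, and 0 to 898 with a library left out. Depth limits Mboat4 and Nts most, at 3.94 and 0.175 CPM at most in STM.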
